A study of Mus musculus with 7 samples.

Results

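The X-linked genes that could be measured on both X chromosomes of iXist-ChrX-Cast mouse embryonic stem cells (mESCs) after 10 days of Xist induction are described here, each chromosome against the other within the same library. Genes were chosen by their allelic fragment counts, with Cast-assigned and Dom-assigned fragments together reaching 30 in each of the 3 libraries. This held for 346 of the 908 X-linked genes counted, out of 22556 genes in all. The sum of both alleles chose the genes, so their coverage is not a result, and the division between the alleles was not used. Of the 346, 334 are in the allelic ratio table deposited for this line and 12 are not, and 65 genes of that table fell short of the coverage.

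iXist-ChrX-Cast is a female line from a cross of 129S (Dom) and CAST/EiJ (Cast) mice, in which the endogenous Xist promoter on the Cast X chromosome was replaced by a TetOn promoter. It is a clone of cells that were kept undifferentiated and given doxycycline at 1 µg/mL for 10 days (n = 3 libraries). The chromosome that makes Xist, here Cast, is called Xi and the other, here Dom, is called Xa. For a check of allele-specific differences, iXist-ChrX-Dom was also used (n = 4 libraries), a line of the same cross, sex and treatment with the TetOn promoter on the Dom X chromosome, so that Xi is Dom and Xa is Cast. Chromatin-associated RNA sequencing (ChrRNA-seq) was performed on all of them. This RNA is rich in transcripts still being made, so introns carry much of the signal. No uninduced sample was analysed here, so the values describe the induced state and not what induction changed.

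X inactivation balances the X-linked gene dose of female mammals with that of males. Xist, a long non-coding RNA, spreads along the chromosome that transcribes it, and the genes of that chromosome are then silenced in cis. Some genes escape and continue to be transcribed from the silenced chromosome, and silencing is normally set up as the cells of the embryo differentiate.

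Sequencing depth was similar in the 3 libraries, with 14877384 to 19941905 counted fragments, of which 44.5% to 45.4% could be assigned to a parental genome. The 346 genes had a median of 244, 334 and 297 allelic fragments in replicates 1 to 3. At 30 fragments a ratio of 0.1 has a Wilson 95% interval of 0.0346 to 0.256, and at 1000 fragments it is 0.0829 to 0.120. The reads have no molecular identifiers, so such intervals cover counting error only. Of 8 markers of mESCs, 7 were detected in every library, with a summed 1465 to 1695 CPM (counts scaled to a common library size). Sox2 was listed at 0. Fragments over several genes of the same strand were left out of the counts, and whether this accounts for that 0 was not tested. Markers of primitive endoderm summed to 51.7 to 60.8 CPM, and those of neural precursors to 15.6 to 21.8 CPM with Sox1 at 0. The 8 markers of the feeder fibroblasts removed before plating summed to 27.4 to 32.7 CPM with Lum at 0, and their part in the allelic values was not tested. The labels do not say that the replicates were separate cultures, so p-values measure the spread between these libraries, which may be technical.

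To determine how far the 2 chromosomes differed, the allelic ratio, Xi/(Xi+Xa), was calculated for each gene. It is 0.5 when both chromosomes contribute equally. The median over the 346 genes was 0.129, 0.138 and 0.110 in replicates 1 to 3 (0.126 ± 0.0142, SD, n = 3). Autosomal genes under the same coverage rule, 10094 in number, had a median Cast share of 0.473, 0.472 and 0.481. Every library showed the X chromosome far below the autosomes, by 0.350 on average. The exact two-sided sign-flip test gave p = 0.25, the smallest p that 3 pairs allow.

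**Figure D1:**
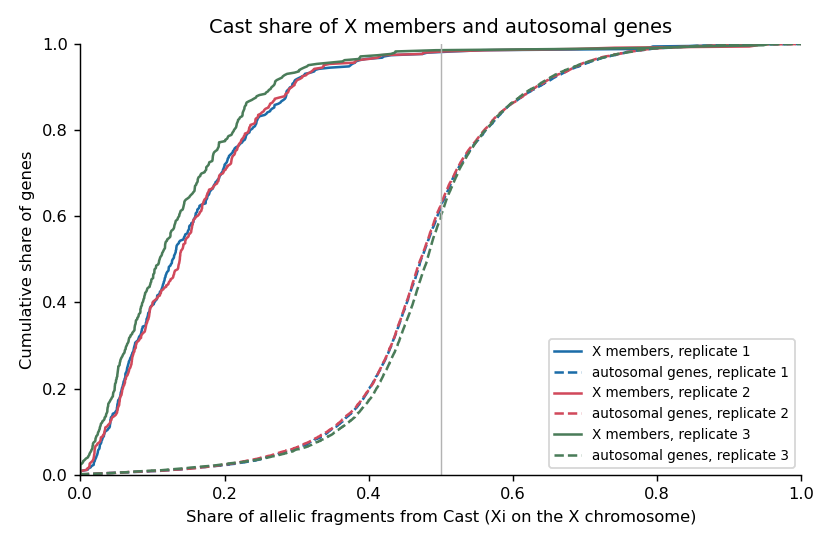
Cumulative share of genes (vertical axis) against the share of allelic fragments from Cast (horizontal axis) for the 346 X-linked genes (solid lines) and 10094 autosomal genes (dashed lines) in each of the 3 replicates. The X-linked curves lie to the left of the autosomal curves in every replicate, and replicate 3 lies furthest left with a median of 0.110.

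Gene by gene, transcripts from Xi were lower than those from Xa for 338 of the 346 genes and higher for 6, and 2 did not pass the test (edgeR quasi-likelihood test with the alleles paired by library, Benjamini-Hochberg adjusted p under 0.05). Among all 10441 genes tested, 40.0% were lower from Cast and 20.0% higher, so the share of X-linked genes called lower, 97.7%, was well above the background. When each allele column was scaled by its own library size and TMM factor, which raised the median over all genes by 0.14 (log2), the background was 28.7% lower and 26.7% higher, and 335 and 6 of the 346 genes were called. The median log2(Xi/Xa) was -2.79, which is 6.94-fold less from Xi. With a difference of more than 1 on the log2 scale required, 313 genes were lower and 5 higher, where 7.6% and 3.64% of all genes tested were called.

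Complete absence of Xi transcripts was rare. C330007P06Rik was the only gene without an Xi fragment in all 3 libraries, and 338 genes had at least 1 in each. Cast fragments of C330007P06Rik were also nearly absent from iXist-ChrX-Dom, where Cast is Xa (1 of 1200). By the mean ratio of the 3 replicates, 53 genes were under 0.05, 86 were from 0.05 to 0.1, 116 from 0.1 to 0.2, 81 from 0.2 to 0.4 and 10 at 0.4 or more. Ratios were above 0.1 in each replicate for 174 genes (50.3%) and under 0.1 in each for 118, while 54 lay on both sides of this limit. Among all genes tested, 1.69% had a Cast share under 0.1 in each replicate. The genes with 30 fragments in their lowest library, just inside the rule, were Zfp300 (0.050), Ccdc120 (0.170) and Gprasp2 (0.158). Those with 29, just outside, were Slc35a2 (0.331), Bex2 (0.0859), Uprt (0) and Iqsec2 (0.0922).

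Genes known to escape X inactivation were examined first. Of 17 X-linked genes on the escape list, 14 met the coverage. Their median ratio was 0.233, against 0.126 for all 346 genes. Of the 14, 13 were above 0.1 in each replicate, against 50.3% of all 346 genes. Even so, 13 of the 14 were lower from Xi than from Xa, where 97.7% of all 346 genes were. Eif2s3x, which encodes a subunit of translation initiation factor eIF2, came nearest to equal contributions, with ratios of 0.481, 0.476 and 0.431 (log2(Xi/Xa) of -0.22 ± 0.08, SE, edgeR adjusted p = 0.0234). This small difference did not pass with TMM scaling (-0.08, adjusted p = 0.403), with DESeq2 (adjusted p = 0.163) or without replicate 2 (adjusted p = 0.0704) or replicate 3 (adjusted p = 0.146).

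Kdm6a, an H3K27 demethylase, differed little between libraries, with 0.396, 0.381 and 0.389 on 7113 to 9145 allelic fragments. The non-coding gene 5530601H04Rik had 0.419, 0.384 and 0.387. Ddx3x, an RNA helicase, had 0.311, 0.337 and 0.270. Ratios thus fell well below 0.5 for these escape genes in all 3 libraries. Kdm5c, an H3K4 demethylase, had 0.297, 0.283 and 0.270. The ubiquitin-activating enzyme Uba1 had 0.249, 0.242 and 0.219, and Usp9x, a deubiquitinase, had 0.225, 0.219 and 0.184. Next to these, Syap1 (0.230 ± 0.0407), Cdk16 (0.225 ± 0.0199) and Pbdc1 (0.220 ± 0.00985) lay within the spread of each other (SD, n = 3). At the low end of the list were Utp14a (0.170 ± 0.00653), 1810030O07Rik (0.159 ± 0.00927) and Shroom4 (0.0924 ± 0.0139), the only listed gene with replicates on both sides of 0.1.

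**Figure D2:**
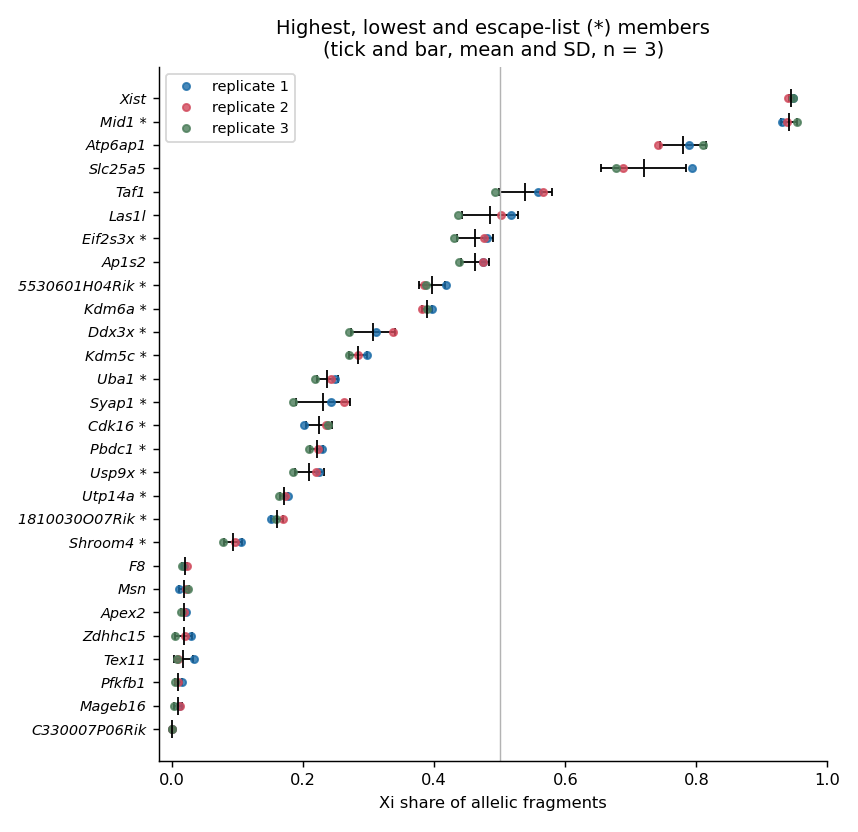
Allelic ratio (horizontal axis) of the genes with the 8 highest and 8 lowest means among those with at least 100 allelic fragments in each library, and of the escape list (marked by asterisks). Points are replicates, ticks and bars are the mean and SD (n = 3). Escape genes other than Mid1 span 0.0924 to 0.462 by their means.

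Next, the X inactivation centre, the region that carries Xist and its regulators, was analysed. Xist came from Xi in 34253 of 36159, 36941 of 39300 and 39800 of 42016 allelic fragments, which gave ratios of 0.947, 0.940 and 0.947. This places the induced chromosome on the Cast allele in every library, as the labels state. Tsix, the antisense transcript of Xist, was nearly all from Xa, with ratios of 0.0508, 0.0640 and 0.0476. The counting used strand, so that Xist and Tsix fragments were told apart. Ftx, a long non-coding RNA gene of the centre, had 0.0689, 0.0676 and 0.0661. Rlim, an E3 ubiquitin ligase that promotes Xist expression, had 0.0719, 0.0718 and 0.0563. Higher ratios were held by the non-coding Jpx, at 0.188, 0.171 and 0.188 on 32 to 48 fragments, and by Chic1, at 0.222, 0.211 and 0.156. Of the 8 genes of this list, 7 were lower from Xi, where 97.7% of all 346 genes were. The median of the list, 0.0873, was below that of all 346 genes.

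The 6 genes called higher from Xi were Xist, Mid1, Zcchc16, Atp6ap1, Slc25a5 and Taf1. Xist was 4.10 ± 0.05 higher on the log2 scale (SE). Mid1, a microtubule-associated ubiquitin ligase gene that spans the pseudoautosomal boundary in C57BL/6 mice, had ratios of 0.930, 0.939 and 0.954 on at least 4032 allelic fragments. Mid1 is telomeric of Xist, where iXist-ChrX-Dom is homozygous, so the contribution of the alleles could not be compared with that line. Mid1 is also absent from the deposited ratio table, so its value is uncertain. Zcchc16, at 0.775, 0.928 and 0.855, rested on 80 to 83 fragments and was named after its values were seen. Slc25a5, an ADP/ATP carrier of mitochondria, had 0.794, 0.687 and 0.677, the largest range of all genes with 100 fragments or more. Many processed copies of Slc25a5 exist in the genome, and since uniquely aligned reads alone were kept, its value is uncertain.

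Atp6ap1, an accessory subunit of the vacuolar proton pump, had 0.789, 0.741 and 0.809. Taf1, the largest subunit of the transcription factor TFIID, had 0.558, 0.566 and 0.493, so that replicate 3 fell on the other side of 0.5. Its log2(Xi/Xa) was 0.22 ± 0.08 (SE, edgeR adjusted p = 0.0289). The call was lost without replicate 1 (0.17, adjusted p = 0.146), without replicate 2 (0.14, adjusted p = 0.331) and with DESeq2 (adjusted p = 0.134). Las1l, a ribosomal RNA processing factor, did not pass the test (0.517, 0.502 and 0.436, adjusted p = 0.458). Neither did Ap1s2, an adaptor protein subunit (0.474, 0.475 and 0.437, adjusted p = 0.0794).

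At the other end, 8 genes with at least 100 allelic fragments in each library had mean ratios of 0 to 0.0191. C330007P06Rik had 0 Xi fragments of 233, 333 and 298, which allows a share of up to 1.29%, 0.901% and 1.01% (3 counts per library). Over the group, 0 of 864 allows up to 0.347%, so that Cast was at least 288-fold lower than Dom. In iXist-ChrX-Dom, where Cast is Xa, 1 fragment of 1200 was Cast. The value is therefore not particular to Xi, and its cause was not tested. Mageb16, a gene of the melanoma antigen family, had 4 of 360, 6 of 472 and 1 of 483 fragments from Xi (1.11%, 1.27% and 0.207%). Pfkfb1, a regulator of glycolysis, had 3 of 194, 2 of 209 and 1 of 275 (1.55%, 0.957% and 0.364%). These 3 genes were under 2% in every library. The Wilson 95% interval of Mageb16 in replicate 3 was 0.0366% to 1.16%. The meiotic gene Tex11 (0.0169 ± 0.0146), the palmitoyltransferase gene Zdhhc15 (0.0176 ± 0.0127), the DNA repair nuclease gene Apex2 (0.0176 ± 0.00337), the moesin gene Msn (0.0184 ± 0.00748) and the coagulation factor gene F8 (0.0191 ± 0.00384) did not differ from each other beyond their spread (SD, n = 3).

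Promoter sequences are shown for the 2 highest escape genes other than Mid1 and for the 2 lowest genes with any Xi fragment among those with at least 100 allelic fragments in each library, so that the promoters at both ends of the range can be read. They are 250 bases before to 50 bases after the start (RefSeq, GRCm38.p6, 5′ to 3′, CpG dinucleotides in capitals). A promoter within 500 bases of the counted start was found for 276 of the 346 genes.
Eif2s3x, chrX:94212602-94212901, reverse strand: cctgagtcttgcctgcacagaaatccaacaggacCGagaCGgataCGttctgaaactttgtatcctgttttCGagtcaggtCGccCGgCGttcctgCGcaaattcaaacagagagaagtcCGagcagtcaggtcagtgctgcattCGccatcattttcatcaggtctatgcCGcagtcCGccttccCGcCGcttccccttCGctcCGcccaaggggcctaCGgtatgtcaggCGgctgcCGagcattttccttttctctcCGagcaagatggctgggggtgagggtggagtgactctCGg
5530601H04Rik, chrX:105070075-105070374, reverse strand: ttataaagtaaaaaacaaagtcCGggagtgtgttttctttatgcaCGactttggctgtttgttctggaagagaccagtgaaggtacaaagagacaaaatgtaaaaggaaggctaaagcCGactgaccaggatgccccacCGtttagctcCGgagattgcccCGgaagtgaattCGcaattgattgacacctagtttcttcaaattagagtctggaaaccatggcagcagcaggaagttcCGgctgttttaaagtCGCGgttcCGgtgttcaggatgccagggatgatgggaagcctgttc
Mageb16, chrX:79671386-79671685, reverse strand: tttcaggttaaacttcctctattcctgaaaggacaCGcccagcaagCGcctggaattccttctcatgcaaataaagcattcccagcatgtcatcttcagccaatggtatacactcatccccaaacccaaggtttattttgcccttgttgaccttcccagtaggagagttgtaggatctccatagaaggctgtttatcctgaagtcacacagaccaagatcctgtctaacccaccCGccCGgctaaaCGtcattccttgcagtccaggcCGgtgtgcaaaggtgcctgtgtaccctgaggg
Pfkfb1, chrX:150589666-150589965, forward strand: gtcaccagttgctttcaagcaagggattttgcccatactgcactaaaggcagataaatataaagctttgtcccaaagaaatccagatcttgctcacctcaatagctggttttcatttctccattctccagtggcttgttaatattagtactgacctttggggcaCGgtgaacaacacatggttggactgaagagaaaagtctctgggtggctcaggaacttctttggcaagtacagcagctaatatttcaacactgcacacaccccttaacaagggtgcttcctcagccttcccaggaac

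The promoter of Eif2s3x (mean ratio 0.462) held 21 CpG dinucleotides and that of 5530601H04Rik (0.397) held 11, whereas Mageb16 (0.00863) had 6 and Pfkfb1 (0.00956) had 1. Over the 276 promoters, the median number of CpG dinucleotides was 11.5 for genes with a mean ratio under 0.05 (36 genes), 17.0 from 0.05 to 0.1, 20.0 from 0.1 to 0.2, and 18.0 in both higher classes. Across genes, which are not independent replicates and share the libraries, Spearman rho between ratio and CpG number was 0.139. The letters GCCATNTT, the core to which the transcription factor YY1 is known to bind, were searched on both strands (no overlap with another motif was considered). They were in 35 of the 276 promoters (12.7%), and in 6.05% of all 32851 promoters of the table. By class of ratio, from the lowest to the highest, the share was 5.56%, 8.82%, 14.6%, 16.2% and 22.2%, the last of these on 9 promoters. The 2 matches among these 9 were Eif2s3x and Xist. On Xi the endogenous Xist promoter was replaced by TetOn, so its letters do not describe Xi, and the highest class rests on few promoters. Such a match is a description of letters and does not show that the factor binds.

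The 12 genes absent from the deposited ratio table had lower median ratios than the 334 in it, 0.0613, 0.0605 and 0.0563 in replicates 1 to 3 against 0.130, 0.138 and 0.112. Their means were not lower in the same way, at 0.163, 0.156 and 0.149 against 0.158, 0.159 and 0.138, with Mid1 and Eras among the 12. The table required 10 or more allelic fragments in over 80% of the wild-type samples of the study. It also required the uninduced ratio to lie between 0.1 and 0.9. The paper regards strongly monoallelic genes as probable technical artifacts, each due to a wrongly annotated SNP. Which filter left out each of the 12 was not tested, and the uninduced values were not analysed here. Among the most covered of the 12 was Nr0b1, a nuclear receptor gene of pluripotent cells, with 0.135, 0.164 and 0.110. Dynlt3, a dynein light chain gene, had 0.0576, 0.0442 and 0.0375. For the synaptic gene Il1rapl1 the values were 0.0602, 0.0237 and 0.00621, at 253 to 322 fragments, with replicate 1 the highest.

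AU015836 had 0.143, 0.154 and 0.178, and the teneurin gene Tenm1 had 0.0847, 0.150 and 0.167. Egfl6 had Xi fragments in replicate 1 only, 0.0250 against 0 and 0. Lower coverage was behind Eras, a Ras family gene of mESCs (0.293 ± 0.0746), the deubiquitinase gene Usp26 (0.0715 ± 0.00783), the row named Mir669m-2 (0.0271 ± 0.0188) and Trap1a (0.0251 ± 0.0135). Of the 12 genes, 9 are centromeric of Xist, where both alleles can be told apart in iXist-ChrX-Dom. There Cast is Xa, and the Cast share of 5 of the 9 was at least 0.720 in each library. The other 4 were Dynlt3 (0.154 to 0.264), C330007P06Rik (0 to 0.00300), Il1rapl1 (0.430 to 0.571) and Mir669m-2 (0.444 to 0.75).

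**Figure D3:**
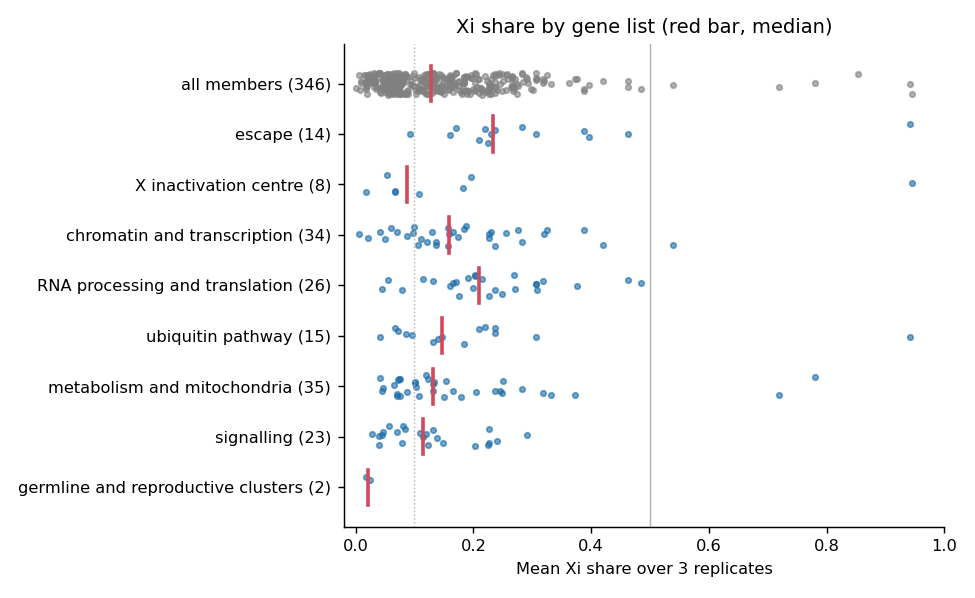
Mean allelic ratio over 3 replicates (horizontal axis) of all 346 genes and of the members of 8 gene lists, each point a gene and each red bar the median. The escape list has the highest median (0.233) and the RNA processing and translation list the next (0.209), and points of every list but the germline list lie on both sides of 0.1.

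Functional groups were compared by counts and medians only. Genes of RNA processing and translation had a median of 0.209, and 23 of 26 (88.5%) were above 0.1 in each replicate, against 50.3% of all genes. The highest were Las1l and Eif2s3x, which are described above, and the ciliary gene Rpgr (0.376), which does not belong to RNA processing by its known role. Rbm3, a cold-induced RNA-binding protein gene, had 0.307 ± 0.00817 (SD, n = 3). The lowest were Gnl3l, a nucleolar GTPase gene (0.0453 ± 0.00818), and the splicing factor gene Rbmx (0.0553 ± 0.0179). Of the 26, 25 were lower from Xi, as were 97.7% of the whole set of genes.

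Chromatin and transcription genes had a median of 0.158, with 22 of 34 (64.7%) above 0.1 in each replicate, against 50.3% of the whole set. Suv39h1, an H3K9 methyltransferase gene, had 0.431, 0.415 and 0.413 (log2(Xi/Xa) of -0.47 ± 0.15, SE, edgeR adjusted p = 0.0133). It did not pass with DESeq2 (adjusted p = 0.182), with TMM scaling (adjusted p = 0.0729) or without replicate 2 (adjusted p = 0.0751). Ogt, the O-GlcNAc transferase, had 0.320 ± 0.0205, and Hdac6 0.324 ± 0.0155 (SD, n = 3). The remodeller Atrx was much lower at 0.121 ± 0.00713. At the bottom, Tceal8 had an Xi fragment in replicate 2 only (0.0184), and Taf9b in replicate 1 only (0.0645, 31 fragments). Tceal8 is named for its likeness to an elongation factor.

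Ubiquitin pathway genes lay near the whole set, with a median of 0.148. Of them, 9 of 15 (60%) were above 0.1 in each replicate, against 50.3% of that set. Otud5, a deubiquitinase, had 0.307 ± 0.0184 and the E3 ligase gene Huwe1 0.237 ± 0.0168. The lowest by value, Zfp280c (0.0422 ± 0.00320), is a zinc finger gene and not an enzyme of the pathway. Metabolic and mitochondrial genes had a median of 0.131, with 17 of 35 (48.6%) above 0.1 in each replicate, against 50.3% of the whole set. Atp6ap1 and Slc25a5 were the highest of them, and the glycolytic Pgk1 (0.0406 ± 0.00757) and Phka1, a subunit of phosphorylase kinase (0.0448 ± 0.00930), the lowest.

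In the signalling list the median was 0.114, with 12 of 23 (52.2%) above 0.1 in each replicate, against 50.3% of all 346 genes. All 23 were lower from Xi, as were 97.7% of all 346 genes. Porcn, which modifies Wnt ligands, had 0.301, 0.289 and 0.281. Pim2, a kinase, had 0.119, 0.288 and 0.314 on 35 to 66 fragments, so that replicate 1 stood apart at low depth. The kinase Nrk was low in all 3 (0.0302, 0.0539 and 0.0336). Only 2 germline genes met the coverage, Tex11 and Trap1a, both lower from Xi with a median of 0.0210. In all, 202 of the 346 genes were in no list.

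The position of genes along the chromosome was then examined (mm10). In blocks of 10 Mb the median ratio was highest in the centromeric 10 Mb (0.227, 27 genes), at 0.204, 0.25 and 0.217 in replicates 1 to 3. It was lowest from 50 to 60 Mb (0.0622, 23 genes), at 0.0580, 0.0750 and 0.0546, and next lowest among blocks of 20 or more genes from 130 to 140 Mb (0.0769, 27 genes). The centromeric block was above both others in each replicate, but the blocks were picked by the means of these same replicates. Neighbouring genes had related ratios, with Spearman rho of 0.295 over 345 neighbouring pairs, a description of genes that share libraries and in part overlap.

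A stretch of 13 consecutive genes, each with a mean of at least 0.2, lay at chrX:7762660-8252406. From the centromeric side it held Tfe3, Gripap1, Otud5, Pim2, Pqbp1, Eras, Hdac6, Suv39h1, Wdr13, Rbm3, Tbc1d25, Porcn and Ftsj1, with means of 0.227 to 0.420. The medians of the stretch were 0.301, 0.313 and 0.281 in replicates 1 to 3. That they exceed those of the 346 genes is no separate result, since the stretch was chosen by means of these replicates. After Suv39h1 the highest was Tbc1d25, a Rab GTPase-activating protein gene, at 0.421, 0.412 and 0.328. All 13 were lower from Xi, as were 97.7% of all 346 genes. A shorter one, chrX:20615325-20699877, held Ndufb11, Rbm10, Uba1 and Cdk16 at 0.225 to 0.332.

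By contrast, 2 stretches of 5 genes each were under 0.05. At chrX:137571548-139357738, Il1rapl2, Nrk, Mum1l1, C330013F16Rik and Trap1a had means of 0.0203 to 0.0392. At chrX:150571506-151017322, Apex2, Pfkfb1, Tro, Maged2 and Gnl3l had means of 0.00956 to 0.0494. The limits of these stretches were set after the values were seen, and no test was made of them.

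**Figure D4:**
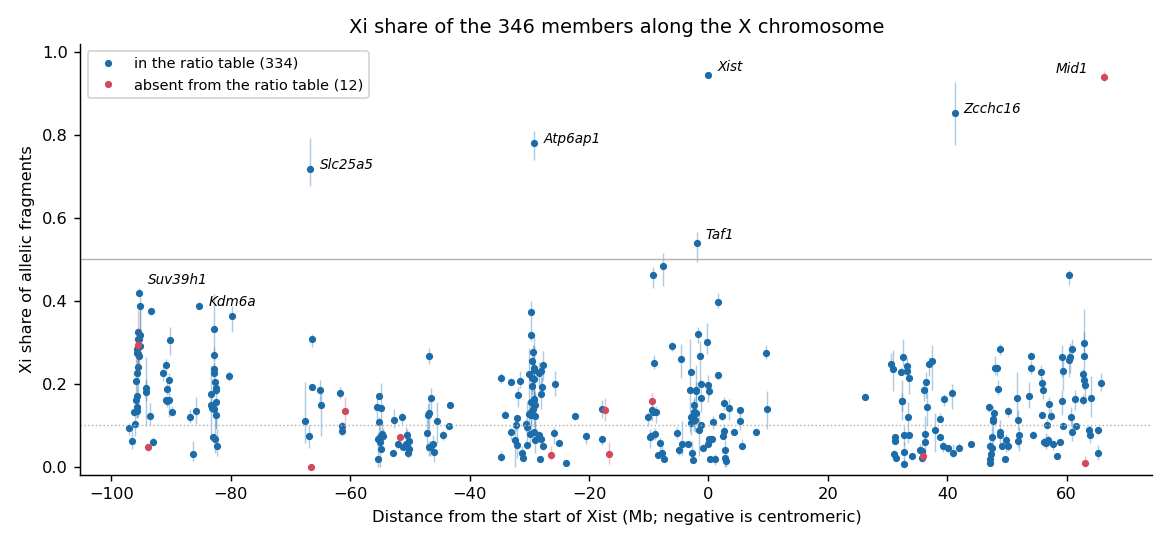
Allelic ratio (vertical axis) of the 346 genes against the distance of each gene from the start of Xist in Mb (horizontal axis, negative is centromeric). Points are means of 3 replicates and lines run from the lowest to the highest replicate, with the 12 genes absent from the ratio table in red. The centromeric end holds the stretch of 13 genes between 0.227 and 0.420, and 5 genes lie above 0.6 (Xist, Mid1, Zcchc16, Atp6ap1 and Slc25a5).

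Ratios were similar between replicates, with Spearman rho of 0.903 to 0.930 across the 346 genes. The SD over replicates had a median of 0.0184 and its percentile 90 was 0.0493. Replicate 3 was the lowest of the 3 for 209 genes (60.4%) and the highest for 52. Beside Slc25a5, G6pdx, which encodes glucose-6-phosphate dehydrogenase, had one of the 3 largest ranges among genes with 100 fragments or more (0.180, 0.0725 and 0.115), on at most 138 allelic fragments per library. The median over all genes without replicate 3 was 0.132.

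To separate the effect of the silenced chromosome from lasting differences between Cast and Dom alleles, both lines were put in the same fit, in which Xi is Cast in iXist-ChrX-Cast and Dom in iXist-ChrX-Dom. Genes telomeric of the Xist start were left out because iXist-ChrX-Dom is homozygous there, and 205 X-linked genes remained, all of them among the 346. Averaged over both lines, 201 of the 205 were lower from Xi and 1, Xist, was higher (edgeR, adjusted p under 0.05), where 9.73% and 9.59% of all 10162 genes tested were called. The median of the mean log2(Xi/Xa) was -2.63, or 6.20-fold less from Xi. In their descriptions, replicates 3 and 4 of iXist-ChrX-Dom carry day 1 where the titles carry 10 days, and without both libraries 206 of 210 genes were lower.

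Genes near or above 0.5 in iXist-ChrX-Cast took other values in this fit. Atp6ap1 was 0.0515, 0.0245, 0.0415 and 0.0365 in the 4 libraries of iXist-ChrX-Dom, and its mean log2(Xi/Xa) over the lines was -1.39 (adjusted p = 7.15e-08). Taf1 was 0.226, 0.214, 0.232 and 0.249 in iXist-ChrX-Dom, with a mean of -0.76 (adjusted p = 1.96e-10). Las1l was 0.0852, 0.0598, 0.0647 and 0.0578, with a mean of -1.95 (adjusted p = 5.76e-13). All 3 genes were thus lower from Xi when both lines were averaged, and their Cast alleles were higher than their Dom alleles on average. Eif2s3x had 0.262, 0.259, 0.311 and 0.330 in iXist-ChrX-Dom and a mean of -0.76 (adjusted p = 2.25e-09).

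The fit did not call 3 genes. Suv39h1 had 0.645, 0.500, 0.511 and 0.533 in iXist-ChrX-Dom and a mean log2(Xi/Xa) of -0.11 (adjusted p = 0.608), the nearest to equal contributions. Slc25a5 had 0.395, 0.445, 0.300 and 0.325, with a mean of 0.26 (adjusted p = 0.0780). Slc25a5 was called higher from Xi without iXist-ChrX-Dom replicate 3 (adjusted p = 0.0242) or without iXist-ChrX-Cast replicate 3 (adjusted p = 0.0355). C330007P06Rik was Dom in both lines, with 1 Cast fragment of 1200 in iXist-ChrX-Dom. Kdm6a, by comparison, was 0.430 to 0.441 in iXist-ChrX-Dom and its mean was -0.51 (adjusted p = 1.61e-12).

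The difference of log2(Xi/Xa) between the lines, a test added after the data were seen, passed for 122 of the 205 genes (59.5%). This was below the background, since the same contrast was called for 72.5% of all genes tested, where it measures a difference between Cast and Dom alleles. It was higher in iXist-ChrX-Cast for 56 and lower for 66. TMM scaling turned this division to 81 higher and 45 lower. Each line is a clone, so on the X a difference between alleles cannot be told apart here from one between the lines. The largest differences with the higher value in iXist-ChrX-Cast were those of Atp6ap1, Las1l, AU015836, the Cullin adaptor gene Klhl13, the GTPase-activating protein gene Stard8, and Nr0b1. Klhl13 was 0.206, 0.221 and 0.231 in iXist-ChrX-Cast and 0.0263 to 0.0399 in iXist-ChrX-Dom. With the lower value in iXist-ChrX-Cast, the largest were those of C330007P06Rik, Dynlt3, Xist, Il1rapl1, Mageb16 and the RNase gene Zc3h12b. The ratio of Dynlt3 was 0.736 to 0.846 in iXist-ChrX-Dom, and that of Zc3h12b was 0.378 to 0.508 against 0.0199 to 0.0522 in iXist-ChrX-Cast.

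**Figure D5:**
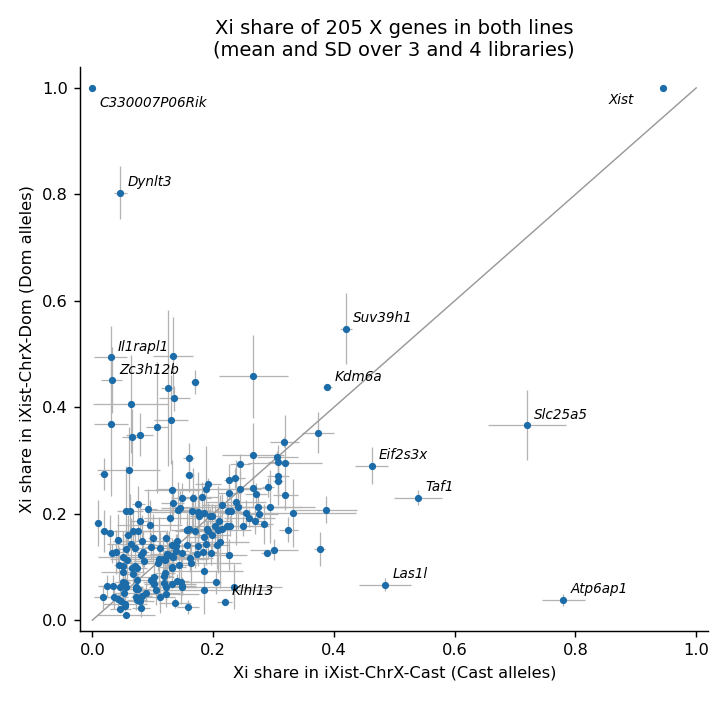
Allelic ratio of 205 X-linked genes in iXist-ChrX-Cast (horizontal axis, 3 libraries) and iXist-ChrX-Dom (vertical axis, 4 libraries), as means with SD. On the line both are equal. Atp6ap1 and Las1l lie at the lower right, Dynlt3 and C330007P06Rik at the upper left, and Xist at the upper right in both lines.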

How the data were processed

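ChrRNA-seq libraries of iXist-ChrX-Cast (n = 3) and iXist-ChrX-Dom (n = 4) were used, grouped by title. Reads were cleared of ribosomal RNA by the authors (Bowtie2 2.3.2), aligned uniquely with STAR 2.4.2a to N-masked mm10, split by allele with SNPsplit and counted as fragments over whole transcripts, by strand, with featureCounts 1.5.2. The deposited files hold raw fragment counts per gene, total, Cast and Dom. The deposited ratio tables hold the fraction Xi/(Xi+Xa) of filtered genes and were used to see which genes they list and which column is Cast. Per the file headers, featureCounts was run without its option for multiple overlaps, so fragments over several genes of the same strand were left out. The files of Cast replicates 1 and 2 carry another clone name than their labels, and the labels were followed.

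Both allele columns of a library were given the library's allelic total, and genes with at least 30 allelic fragments in each library were tested with edgeR 4.0.16 in R 4.3.3 (two-sided quasi-likelihood test, ~ library + allele, Benjamini-Hochberg over all genes, 0.05). The fit over both lines added allele by line, and its interaction divided over both lines gives the mean log2(Xi/Xa). DESeq2 1.42.0 was an alternative. Others were TMM and median-of-ratios scaling, minima of 10, 100 and none, no pairing, a minimum log2 fold of 1, ratio limits of 0.05 and 0.2, correction by the autosomal Cast odds, and each library left out. The test scripts were tested on simulated data. Ratios are given as mean ± SD, and the X chromosome was compared with autosomes by an exact sign-flip test.

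Named genes were Xist, the escape list, and the 8 highest and 8 lowest ratios with at least 100 fragments in each library. Added to them were the 8 most covered genes absent from the ratio table and the 2 highest and 2 lowest of each list. The last were 3 of largest range, and 6 with the largest difference between the lines on each side. Some of these genes are not reported here. Members and lists were chosen with earlier results of these data known. Total counts of the Cast replicates differed by more than sampling noise in each pair. The chi-square per gene was 9.71 between replicates 1 and 2, and 36.1 to 39.7 in the pairs with replicate 3. Same-numbered libraries of the lines were not paired by the labels, and their deviations from the line means correlated at 0.0618 to 0.0674. Replicates 1 and 2 of one line correlated with 1 and 2 of the other at 0.0397 to 0.0703. Cast replicate 3 correlated with Dom replicates 3 and 4 at 0.0618 and 0.156. All pairs across these sets were negative, at -0.127 to -0.0156. Whether the sets were handled apart was not tested, and the main fit over both lines has no term for it. CPM was calculated here from the deposited total counts.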

Additional observations from a re-analysis of the deposited data

Results flagged for a closer look

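A group of 3 libraries is too small for the check of single libraries that stand apart, so within iXist-ChrX-Cast none was made. In iXist-ChrX-Dom, C330007P06Rik had a ratio of 0.997 in replicate 2 and 1 in the other 3 libraries, which rests on 1 Cast fragment. With the other 3 libraries tied, the check flags any value that differs from them, so this flag carries no weight.

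The other results are genes whose log2(Xi/Xa) differed between the lines by the edgeR contrast added after the data were seen. They are given as iXist-ChrX-Cast minus iXist-ChrX-Dom and were named by the size of this difference. Allele and line cannot be told apart in it. Higher in iXist-ChrX-Cast were Atp6ap1 (6.41), Las1l (3.69), AU015836 (2.98), Klhl13 (2.97), Stard8 (2.74) and Nr0b1 (2.31). Lower there were Dynlt3 (-6.42), Xist (-5.97), Il1rapl1 (-5.08), Mageb16 (-4.72) and Zc3h12b (-4.66). For C330007P06Rik the summed ratio differed by -0.999, with 0 Xi fragments in iXist-ChrX-Cast. The Stard8 difference was not called without iXist-ChrX-Cast replicate 2 (1.63, edgeR adjusted p = 0.0564). The same contrast was called for 72.5% of all genes tested.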

How the results depend on the processing

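Members lower from Xi numbered 334 to 335 of 346 with DESeq2, either scaling or no replicate block (alleles not paired by library, 334). Without a replicate they were 335 of 346 to 353 of 362, since the coverage rule was then applied to the libraries left. Members higher from Xi numbered 5 without the block and 5 to 6 without a replicate. The median ratio of 0.126 became 0.152 as a mean over genes, 0.294 as summed fragments and 0.183 with Xist left out of that sum (added after seeing the data), and 0.0594 over absent genes alone. It was 0.119 to 0.132 without a replicate. Genes above 0.1 in each replicate numbered 174, or 69 with a limit of 0.2, and 179 of 346 to 198 of 352 without a replicate. In the fit over both lines, genes higher from Xi numbered 2 rather than 1 with a replicate block and without iXist-ChrX-Dom replicates 3 and 4 together, with Slc25a5 added, and 1 to 2 without a library. Genes lower from Xi were 201 of 205 with the block, and 201 of 205 to 207 of 211 without a library. The line difference was lower in iXist-ChrX-Cast for 40 rather than 66 genes with the block (57 to 67 without a library), and higher for 41 rather than 56 (39 to 63). Samples of the lines share only a number, and Stard8 was not called with the block (1.48, adjusted p = 0.314). More genes were then higher than lower with the block, and also with TMM (81 and 45) and without iXist-ChrX-Cast replicate 3 (59 and 57), iXist-ChrX-Dom replicate 4 (63 and 60) or iXist-ChrX-Dom replicates 3 and 4 (63 and 57). No called gene named in the text changed sign. The difference from autosomes ranged from -0.350 to -0.328. The cause of these shifts was not tested. Calls of low-depth genes are limited by counting error, and a ratio near 0 by the few Xi fragments.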

Other observations

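The RNA that Xi did contribute came from few genes. Xist alone held 47.9%, 42.2% and 50.6% of the Xi fragments of the 346 genes in replicates 1 to 3. Of the remaining Xi fragments, summed over replicates, Mid1 held 10.4%, Kdm6a 7.20%, the ubiquitin ligase gene Huwe1 5.97%, Usp9x 4.04% and Pola1, the catalytic subunit of DNA polymerase alpha, 3.18%. Their shares of the Xa fragments were 0.147%, 2.55%, 4.30%, 3.42% and 5.25%. Mid1 is absent from the deposited ratio table, and an artifact of its SNPs was not tested. Without Xist, 16 genes held 50% of all Xi fragments and 33 genes 50% of all Xa fragments, with 13 genes in both sets (81.2% of the first and 39.4% of the second). Since these are fragment counts over whole transcripts, long genes weigh more.

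Longer transcripts had somewhat lower ratios. Across the 346 genes, which share the libraries and are not independent, Spearman rho between the mean ratio and the counted length was -0.260, and it was -0.242, -0.289 and -0.212 within replicates 1 to 3.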
